A study of Mus musculus with 4 samples.

Results

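The genes described here are 8 of the 32285 in the count matrices. They were chosen by name for their part in the arrest of leukocytes on the vessel wall: E-selectin (Sele), P-selectin (Selp), the atypical chemokine receptor Ackr1, the secreted leucine-rich glycoprotein Lrg1, the immunoglobulin-family adhesion molecules Icam1, Icam2 and Vcam1, and the leukocyte selectin ligand PSGL-1 (Selplg). They were read in mononuclear cells of quadriceps and diaphragm from wild-type (WT) mice and from mdx5cv mice, which carry a mutation in the dystrophin gene and are a model of Duchenne muscular dystrophy, all aged 14 weeks. Each muscle and genotype gave 1 library of cryopreserved cells, and the sources used here give neither the number of animals behind a library nor any treatment. Since a group is 1 library, the differences below were not tested across samples and carry no p-values.

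Leukocytes leave the blood in steps. Selectins on the endothelium, the cells that line vessels, catch passing leukocytes by their sugar-bearing ligands, of which PSGL-1 is the main one for P-selectin. Chemokines held on the vessel wall then activate leukocyte integrins, which bind ICAM-1, ICAM-2 and VCAM-1 and bring the cell to a stop. The venule just downstream of the capillaries is the usual site, and ACKR1, which binds chemokines without signalling through G proteins, marks its endothelium. In skeletal muscle VCAM-1 is also a surface marker of muscle stem cells.

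Upstream sequences are shown for Selp and Lrg1, the tested genes with the highest mdx5cv to WT ratios in quadriceps endothelium, and for E-selectin, the rarest member, whose upstream bases held the most of the short motifs searched. They come from RefSeq (GRCm38.p6), which matched 5 of the 8 members, run 5′ to 3′ up to the RefSeq start of transcription, and are in lower case with motif matches in capitals. The motifs were TTCNNNGAA (bound by STAT factors), TGANTCA (AP-1), TATAAA (the TATA box) and the NF-kB consensus, sought on both strands of the 250 bases before the start.
Sele, chr1:164047984-164048233, plus strand: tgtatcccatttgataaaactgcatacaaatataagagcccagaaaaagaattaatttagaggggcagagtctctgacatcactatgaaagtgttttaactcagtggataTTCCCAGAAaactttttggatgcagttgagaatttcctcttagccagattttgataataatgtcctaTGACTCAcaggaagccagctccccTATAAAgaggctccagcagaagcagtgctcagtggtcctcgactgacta
Selp, chr1:164115014-164115263, plus strand: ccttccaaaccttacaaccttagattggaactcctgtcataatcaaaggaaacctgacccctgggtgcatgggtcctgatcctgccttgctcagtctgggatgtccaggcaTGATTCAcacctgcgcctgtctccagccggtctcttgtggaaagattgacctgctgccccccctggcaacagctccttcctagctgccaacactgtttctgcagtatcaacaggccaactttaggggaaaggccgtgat
Lrg1, chr17:56122002-56122196, minus strand: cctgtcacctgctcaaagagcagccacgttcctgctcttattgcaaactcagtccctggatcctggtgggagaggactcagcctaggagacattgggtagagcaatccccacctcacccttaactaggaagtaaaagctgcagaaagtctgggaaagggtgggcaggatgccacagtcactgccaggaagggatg
Icam1, the match and its flanks alone, chr9:21015888-21015916, plus strand: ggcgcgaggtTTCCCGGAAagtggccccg
The TTCNNNGAA motif stood in Sele as TTCCCAGAA, from 140 to 132 bases before the start, and in Icam1 as TTCCCGGAA, from 42 to 34 bases before it. Of all 32851 RefSeq promoters, 7.02% held this motif in the same window. Sele held TGACTCA from 73 to 67 bases and TATAAA from 49 to 44 bases before the start, and Selp held TGATTCA from 139 to 133 bases before it. TGANTCA was found in 6.75% of all promoters, TATAAA in 12.4% and the NF-kB consensus in 3.9%. The NF-kB consensus as searched was not found in any of the 5 windows, and none of the 4 motifs was found in the window of Ackr1 or Lrg1. The absence covers that consensus alone, and sites that depart from it were not looked for, so it does not show that a gene lacks an NF-kB site. A match is a run of letters and not a site shown to be used. The Lrg1 run holds the first 195 of these bases, because the rest lies inside its GENCODE transcript, and the Ackr1 window lies almost wholly inside a longer Ackr1 transcript and is not printed.

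Depth was counted in unique molecular identifiers (UMIs), each UMI standing for 1 RNA molecule. The matrices summed to 18837891 UMIs for WT and 62780685 for mdx5cv quadriceps, and to 40226833 for WT and 49612759 for mdx5cv diaphragm. Between 4911 and 8334 barcodes per library passed the filters, with median depths of 2055 to 5328.5 UMIs. Cell classes were set by small sums of defining transcripts, and barcodes that met more than 1 gate were left out. In the order WT quadriceps, mdx5cv quadriceps, WT diaphragm and mdx5cv diaphragm, 2414, 410, 67 and 344 barcodes were endothelial (at least 2 UMIs of Pecam1 and Cdh5). All 8 endothelial markers that the gate did not use (Kdr, Flt1, Tie1, Tek, Egfl7, Esam, Cldn5 and Emcn) reached 10 CPM in the endothelial class of every library. Levels are given as CPM, counts of a gene scaled to the summed UMIs of its class, with exact 95% intervals that cover counting error only. Pairs of libraries shared 5 to 17 barcodes, where 5.35 to 9.22 were awaited from the barcode whitelist. The tag of dystrophin (Dmd), which is read near the 3′ end and outside the mutated part, was at 56.1 CPM in WT against 11.6 CPM in mdx5cv over all kept barcodes of the quadriceps, and at 38.2 against 18.2 CPM in diaphragm. It checks nothing about the mutation.

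In quadriceps, 4 of the 8 transcripts were highest in endothelial cells of the WT library (Icam2, Sele, Selp and Lrg1) and 5 in the mdx5cv library, where Ackr1 joined them, among 5 classes compared. Vcam1 was highest in stem cells in all 4 libraries, although its interval overlapped that of mural cells in mdx5cv quadriceps, and Selplg was highest in leukocytes in all 4. Icam1 was shared between endothelial cells, leukocytes and fibroblasts. The plot of levels by cell class shows this division.

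**Figure D1:**
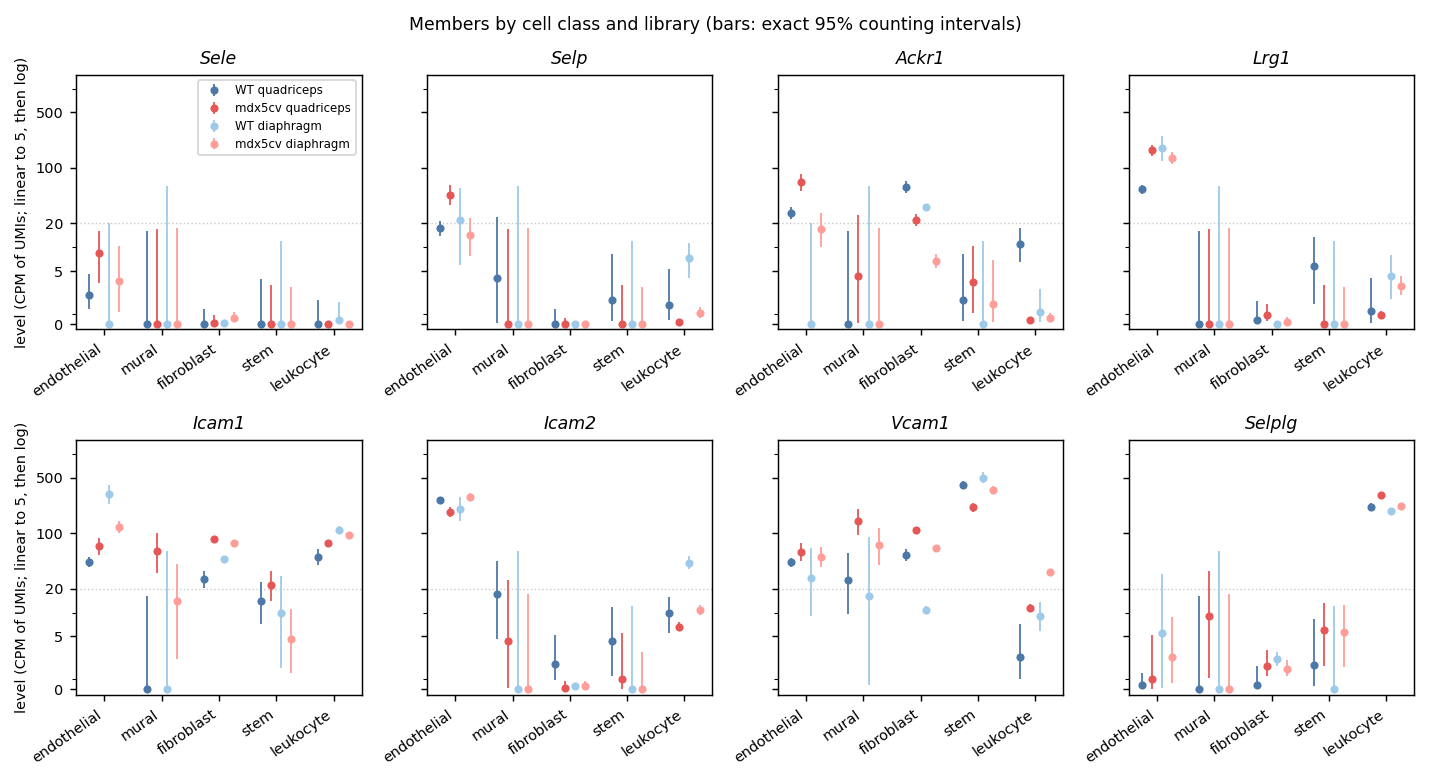
Level of each gene in CPM (linear up to 5, logarithmic above) in 5 cell classes and 4 libraries, with exact 95% counting intervals. Sele, Selp and Lrg1 are at most at 7.26 CPM outside the endothelium, Vcam1 is highest in stem cells at 212 to 503 CPM, and Selplg stands at 191 to 306 CPM in leukocytes.

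Sele, the selectin that cytokines induce on endothelium, was barely detected. WT quadriceps held 13 Sele UMIs in 6 of 2414 endothelial cells, mdx5cv quadriceps 9 in 6 of 410, mdx5cv diaphragm 4 in 3 of 344 and WT diaphragm 0 in 67, where the floor of 3 UMIs is 16.6 CPM and the exact upper limit 20.4 CPM. Each of the other classes of the quadriceps held at most 1 Sele UMI in either library.

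Selp, which is stored with von Willebrand factor in the granules of endothelial cells, stood at 17.4 CPM (13.9 to 21.6) in WT and 46.1 CPM (34.1 to 61.0) in mdx5cv quadriceps endothelium. In diaphragm it was at 22.1 CPM (6.03 to 56.6) in WT, on 4 UMIs from 1 cell, and at 14.1 CPM (7.71 to 23.7) in mdx5cv. No Selp UMI was found in the fibroblasts of either quadriceps library. Platelets also carry Selp: of the 4 platelet markers Ppbp, Itga2b, Gp9 and Gp1bb, 2 or 3 were at 0 in the endothelium of each library and their summed level there was 4.03 to 13.2 CPM.

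Lrg1, a secreted glycoprotein that modifies TGF-beta signalling in endothelium, had its highest level in the endothelial class in all 4 libraries. Its level in endothelial cells was 53.8 CPM (47.4 to 60.9) in WT quadriceps, 166 CPM (142 to 192) in mdx5cv quadriceps, 177 CPM (121 to 250) in WT diaphragm and 133 CPM (111 to 158) in mdx5cv diaphragm. WT quadriceps was therefore the low library, and the other 3 overlapped in their intervals. Taken as whole classes, fibroblasts, stem cells, mural cells and leukocytes were at most at 5.77 CPM in any library. Leukocytes of mdx5cv diaphragm still held 67 Lrg1 UMIs in 3226 cells, beside 132 in 344 endothelial cells. Macrophages of WT diaphragm stood at 19.1 CPM, on 11 UMIs from 5 of 120 cells. An Lrg1 UMI was found in 4.23% of WT and 13.7% of mdx5cv quadriceps endothelial cells, or 2.73% and 7.07% after every cell was thinned to 1000 UMIs. In quadriceps fibroblasts, which should lack it, the share was 0.148% in WT and 0.491% in mdx5cv, at median depths of 3511.5 and 5010 UMIs against 1682.5 and 2189 in the endothelium.

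Ackr1 was found in 2 classes. Endothelial cells held 27.2 CPM (22.7 to 32.4) in WT and 65.9 CPM (51.4 to 83.3) in mdx5cv quadriceps, 0 of 67 cells in WT diaphragm and 17.1 CPM (9.97 to 27.4) in mdx5cv diaphragm. Fibroblasts held 57.4, 22.0, 32.4 and 6.80 CPM in the order WT quadriceps, mdx5cv quadriceps, WT diaphragm and mdx5cv diaphragm. In WT quadriceps fibroblasts were thus the higher class and in mdx5cv quadriceps the endothelium, with intervals that did not overlap in either library. Free RNA held Ackr1 at 19.99 CPM in WT and 6.29 CPM in mdx5cv quadriceps. The fibroblast signal needs care, because Ackr1 (chr1:173331886-173333750, minus strand, GRCm38) overlaps the adhesion gene Cadm3 on the same strand. The shared 493 bases are the 3′ end of Cadm3, and the 3′ ends of the 2 genes lie 1372 bases apart. Cadm3 stood at 94.1, 31.1, 54.7 and 14.3 CPM in the same fibroblasts but in quadriceps endothelium at 7.23 CPM for WT and 13.2 CPM for mdx5cv. The sources used here do not say how reads in the overlap were assigned.

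Icam2, which resting endothelium and some leukocytes carry, was at 265 CPM (251 to 280) in WT and 186 CPM (161 to 214) in mdx5cv quadriceps endothelium, and at 205 CPM (144 to 282) and 286 CPM (254 to 321) in WT and mdx5cv diaphragm. It was the member seen in the largest share of quadriceps endothelial cells, 36.2% in WT and 34.4% in mdx5cv, or 21.5% and 17.3% after thinning. In fibroblasts the share was 0.740% and 0.0981%. Barcodes with 10 to 100 UMIs, taken as free RNA, held Icam2 at 92.2 CPM in WT quadriceps and at 13.9 CPM or less in the other libraries.

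Icam1, the inducible ligand of the integrins LFA-1 and Mac-1, stood at 43.4 CPM (37.6 to 49.8) in WT and 68.7 CPM (53.9 to 86.4) in mdx5cv quadriceps endothelium, and at 310 CPM (234 to 402) and 120 CPM (99.3 to 143) in WT and mdx5cv diaphragm. In leukocytes of the quadriceps it was at 50.5 CPM in WT against 76.2 CPM in mdx5cv, and in those of the diaphragm at 111 against 95.5 CPM. In fibroblasts it was at 26.3 and 84.4 CPM in quadriceps and at 46.8 and 75.9 CPM in diaphragm. In mdx5cv quadriceps these 3 classes lay between 68.7 and 84.4 CPM, and the interval of the endothelium overlapped both others. Free RNA held Icam1 at 32.2 CPM in WT and 62.9 CPM in mdx5cv quadriceps and at 47.0 and 62.5 CPM in diaphragm, close to the endothelial level in quadriceps.

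Vcam1, the ligand of the integrin VLA-4, was found mainly outside the endothelium. Stem cells held 407 CPM (366 to 452) in WT quadriceps, 212 CPM (185 to 243) in mdx5cv quadriceps, 503 CPM (426 to 589) in WT diaphragm and 351 CPM (316 to 389) in mdx5cv diaphragm. Endothelial cells held 42.7, 58.4, 27.6 and 50.4 CPM in the same order, the third of these on 5 UMIs. Every interval of the endothelium lay below that of the stem cells of the same library. Free RNA held Vcam1 at 35.5 CPM in WT and 54.6 CPM in mdx5cv quadriceps, again close to the endothelial level.

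In quadriceps most UMIs of Selp, Ackr1, Lrg1 and Vcam1 came from a small venous group of endothelial cells. Endothelial cells were divided by transcripts outside the 8: arterial (Sema3g, Gja4, Gja5, Hey1, Bmx), venous (Vwf, Nr2f2), lymphatic (Prox1, Mmrn1, Ccl21a) and capillary (Rgcc, Gpihbp1, Cd300lg and none of the others). In WT quadriceps 1795 cells were capillary, 257 arterial and 175 venous, and in mdx5cv quadriceps 265, 54 and 52. Of the quadriceps endothelial cells, 7.25% (6.25 to 8.36) were venous in WT and 12.7% (9.62 to 16.3) in mdx5cv, or 3.02% and 4.63% when gated after thinning to 1000 UMIs. Deeper cells pass such a gate more easily: median depths of the venous and capillary cells were 2419 and 1609 UMIs in WT, and 3288.5 and 2080 in mdx5cv.

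Venous cells held 84.1% of the Selp UMIs of WT quadriceps endothelium (74.4 to 91.3), 82.0% of the Ackr1 UMIs (74.3 to 88.3), 76.7% of the Lrg1 UMIs (71.0 to 81.7), 61.2% of the Vcam1 UMIs (54.1 to 68.0) and 41.2% of the Icam1 UMIs (34.4 to 48.3), although they held only 9.76% of all UMIs of the class. In mdx5cv quadriceps these shares were 89.8%, 87.1%, 63.6%, 53.2% and 39.7%, against 18.4% of all UMIs. In mdx5cv diaphragm all 14 Selp UMIs, all 17 Ackr1 UMIs and all 4 Sele UMIs were venous, as were 68.0% of the Vcam1, 58.3% of the Lrg1 and 20.2% of the Icam1 UMIs. The WT diaphragm, with 3 venous cells, did not show this: 1 of its 32 Lrg1 UMIs was venous, 8 were lymphatic and 23 unresolved, and 0 of 4 Selp and 0 of 5 Vcam1 UMIs were venous. Icam2 did not share this pattern, with 7.86% of its UMIs in the venous cells of WT quadriceps.

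**Figure D2:**
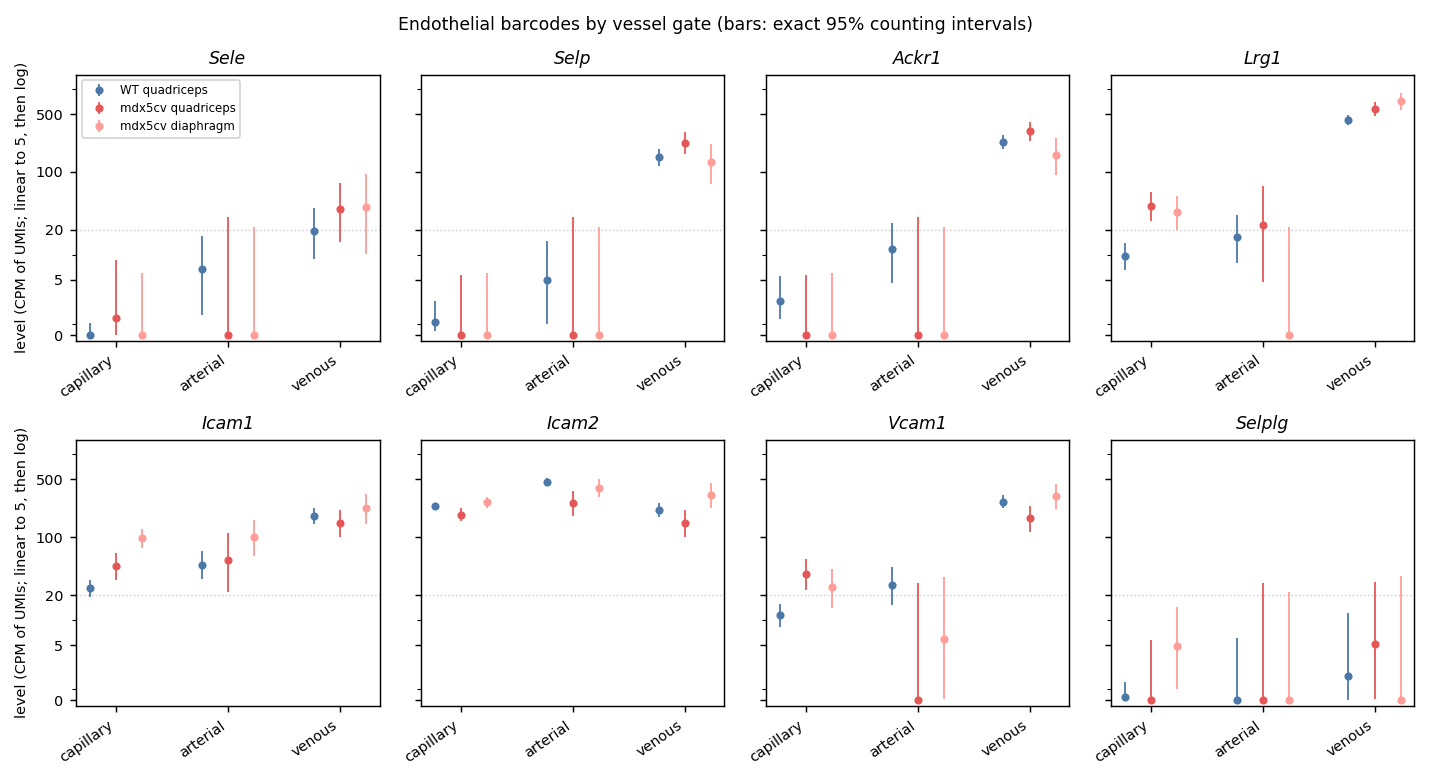
Level of each gene in CPM (linear up to 5, logarithmic above) in capillary, arterial and venous endothelial cells of 3 libraries, with exact 95% counting intervals; the WT diaphragm is left out for its 3 arterial and 3 venous cells. Sele, Selp, Ackr1, Lrg1, Icam1 and Vcam1 are highest in venous cells, while Icam2 is highest in arterial cells of the WT quadriceps at 465 CPM.

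Lrg1 stood at 423 CPM (365 to 487) in venous, 16.7 CPM (7.99 to 30.6) in arterial and 9.72 CPM (6.65 to 13.7) in capillary cells of WT quadriceps. Ackr1 stood at 229, 11.7 and 3.04 CPM in the same 3 groups, and Selp at 150, 5.0 and 1.22 CPM. For these 3 genes the venous interval lay above both others, and the arterial and capillary intervals overlapped. Vcam1 was at 268 CPM in venous, 26.6 CPM in arterial and 11.5 CPM in capillary cells, and Icam1 at 183, 46.6 and 24.3 CPM. Icam2 went the other way, with 465 CPM (412 to 523) in arterial against 214 CPM (173 to 260) in venous and 236 CPM (219 to 253) in capillary cells.

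Single cells carried these transcripts together. Of the 39 WT quadriceps endothelial cells with a Selp UMI, 36 also had an Lrg1 UMI (92.3%), against 2.78% of the other 2375 cells. In mdx5cv quadriceps 16 of 17 Selp-positive cells had Lrg1 (94.1%), against 10.2% of the other 393. Of the cells with an Ackr1 UMI, 74.0% in WT and 94.1% in mdx5cv had Lrg1. Cells with a Selp UMI were deeper, with medians of 3468 against 1668 UMIs in WT and 4060 against 2130 in mdx5cv. All 6 Sele-positive cells of WT quadriceps also had Selp and Icam1 UMIs, and of the 6 in mdx5cv quadriceps 4 had Selp and 3 had Icam1.

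Between genotypes, 3 of the 6 members that could be tested in quadriceps endothelium were at least 2-fold higher in mdx5cv: Lrg1 by 3.08-fold (2.53 to 3.75), Selp by 2.64-fold (1.82 to 3.81) and Ackr1 by 2.42-fold (1.78 to 3.26). A gene was tested at 20 CPM or more in either library. Of the 6905 genes tested, 5.71% were at least 2-fold higher and 2.06% at least 2-fold lower, with a median log2 ratio of 0.17 over all of them. Lrg1, Selp and Ackr1 had higher ratios than 98.3%, 97.5% and 97.0% of these genes. Icam1 was at 1.58-fold (1.20 to 2.08) and Vcam1 at 1.37-fold (1.01 to 1.82), both short of the 2-fold line. Icam2 was at 0.70-fold (0.60 to 0.82), the only tested member with an interval below 1. Sele, under 20 CPM in both libraries and so not tested, had a ratio of 3.06 (1.16 to 7.75) on 13 UMIs in WT and 9 in mdx5cv. Leukocyte markers summed to 64.0 CPM in the WT and 172 CPM in the mdx5cv endothelial class over 5 genes, none of which was at 0 in either, and their part in the result was not tested.

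The calls rested on which barcodes were kept. With a mitochondrial limit of 5% in place of 15%, which left 771 and 165 endothelial cells, none of the 3 was called and the ratios were 1.90 for Lrg1, 1.21 for Selp and 0.85 for Ackr1. With at least 2000 UMIs per barcode Lrg1 alone was called, at 2.13, beside 1.80 for Selp and 1.73 for Ackr1. With barcodes that met another gate kept, which made 2663 and 613 endothelial cells, the ratios were 1.76, 1.37 and 1.26. Lrg1 thus stayed between 1.76 and 3.45 over the 11 alternatives, while Ackr1 ranged from 0.85 to 2.95.

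**Figure D3:**
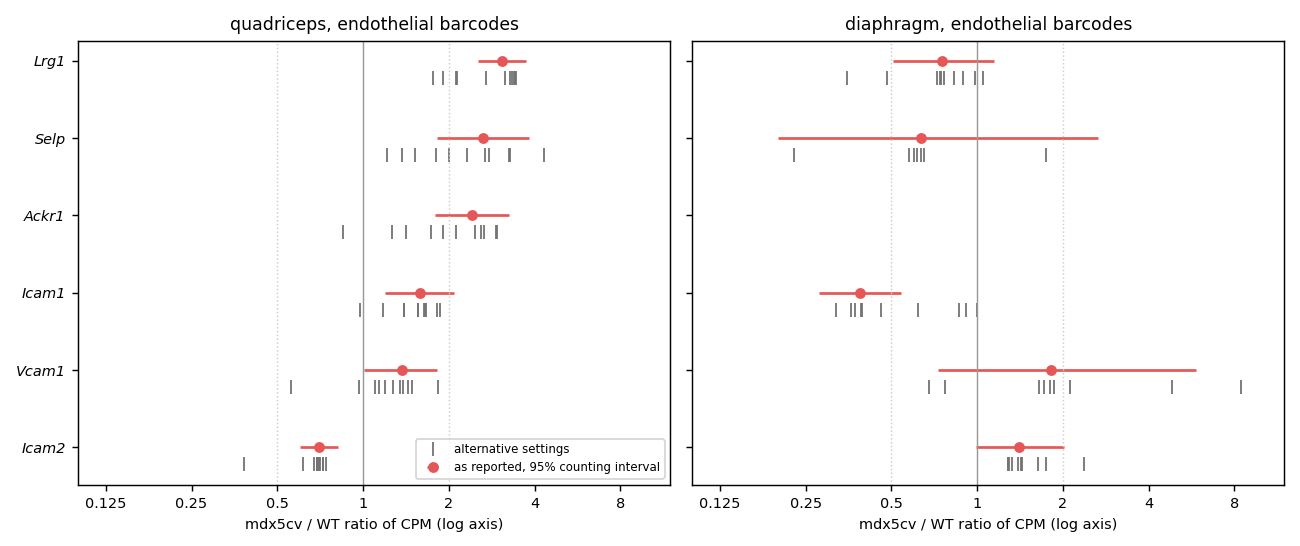
Ratio of mdx5cv to WT levels (log axis) in endothelial cells of both muscles. Red points are the reported values with exact 95% counting intervals and grey ticks the values under other settings; Lrg1 stays at 1.76 or more in quadriceps, while the ticks of Ackr1, Icam1 and Vcam1 reach below 1.

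The share of venous cells depended on depth: with at least 2000 UMIs per barcode it was 14.97% in WT and 17.0% in mdx5cv quadriceps. Under that limit the Selp ratio was 1.80, down from 2.64, and the Ackr1 ratio 1.73, down from 2.42. With at most 5% mitochondrial UMIs the share was 6.74% in WT and 12.1% in mdx5cv. The ratios there were 1.21 for Selp and 0.85 for Ackr1. After thinning before all gates were applied the share was 2.64% in WT and 4.94% in mdx5cv. The part of the venous share in these moves was not tested. When the mdx5cv levels were reweighted to the vessel shares of WT quadriceps, the ratios were 2.14 for Lrg1, 1.52 for Selp, 1.41 for Ackr1, 1.39 for Icam1, 1.10 for Vcam1 and 0.725 for Icam2. Within venous cells alone Selp was at 1.5-fold (1.0 to 2.22), Ackr1 at 1.37-fold (0.98 to 1.89) and Lrg1 at 1.36-fold (1.07 to 1.72), and under the 5% mitochondrial limit all 3 were below 1, at 0.77, 0.58 and 0.94. Vcam1 was lower in mdx5cv venous cells, at 0.63-fold (0.42 to 0.93). The larger venous share of mdx5cv quadriceps could come from the tissue, from recovery or from deeper cells passing the gate. These cannot be told apart here.

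In capillary cells Lrg1, Vcam1 and Icam1 had larger ratios than in venous cells. Lrg1 was at 9.72 CPM in WT and 39.2 CPM in mdx5cv quadriceps, a ratio of 4.03 (2.29 to 7.02) on 32 and 25 UMIs. It stayed between 2.45 and 6.38 under 5 alternatives, the 5% mitochondrial limit included. Vcam1 was at 11.5 and 36.1 CPM, a ratio of 3.12 (1.78 to 5.38) that ranged from 1.46 to 3.09 under the same 5, and Icam1 at 24.3 and 45.5 CPM, a ratio of 1.87 (1.18 to 2.89). The Icam1 interval overlapped that of venous cells, at 0.81-fold (0.51 to 1.25). Selp and Ackr1 were not detected in mdx5cv capillary cells, 0 UMIs each in 265 cells, where the floor of 3 UMIs is 4.70 CPM and the exact upper limit 5.78 CPM. Free RNA of WT quadriceps held Lrg1 at 12.2 CPM and Vcam1 at 35.5 CPM, above the WT capillary levels of both, and that of mdx5cv quadriceps held them at 4.196 and 54.6 CPM. Its part in these ratios was not tested. The share of capillary cells with an Lrg1 UMI was 0.836% in WT and 6.04% in mdx5cv, or 0.613% and 1.89% after thinning. Unresolved endothelial cells, 182 in WT and 36 in mdx5cv quadriceps, had a larger Lrg1 ratio still, 8.88 (4.67 to 17.6) on 15 and 32 UMIs. Their Ackr1 ratio was 6.24 (1.98 to 21.3) on 6 and 9 UMIs.

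**Figure D4:**
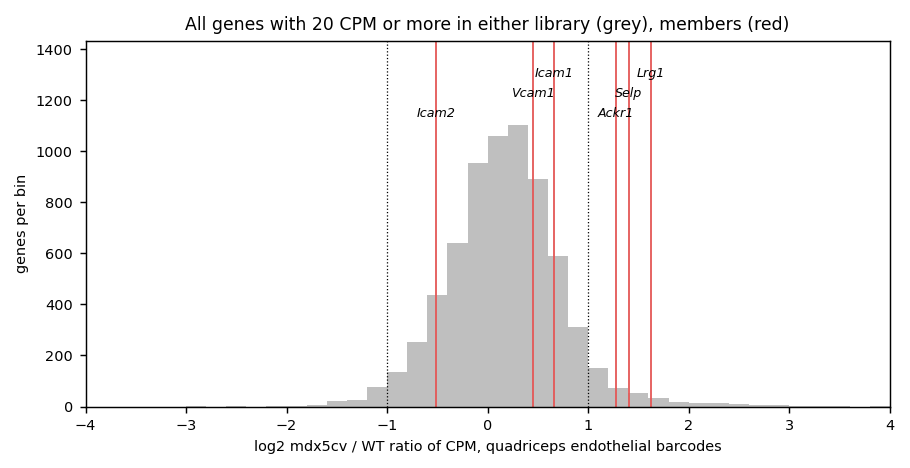
Distribution of log2 mdx5cv to WT ratios over the 6905 genes tested in quadriceps endothelial cells (grey bars, genes per bin of 0.2), with the 6 tested members as red lines and the 2-fold lines dotted. Ackr1, Selp and Lrg1 lie in the upper tail, and Icam2 lies below the median of 0.17.

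In diaphragm the comparison rested on 67 WT cells, of which 31 were capillary, 10 lymphatic and 3 venous, and fibroblast markers were higher in that class, at 3146 CPM summed over 6 genes against 427 to 893 CPM in the other libraries. Of 5 members tested 0 were at least 2-fold higher and 1 was at least 2-fold lower, beside 8.77% and 10.8% of all 7310 genes. Icam1 was the lower one, at 0.39-fold (0.28 to 0.54), and it was lower also within capillary cells, at 0.28-fold (0.17 to 0.47). Immediate-early transcripts, which cells induce within minutes of stress, made up 1.07% of UMIs in the WT diaphragm endothelium and 0.238% to 0.366% in the other 3 libraries. Without barcodes above 0.5% immediate-early transcripts the Icam1 ratio was 0.86, with barcodes of other gates kept it was 0.996, and under the 5% mitochondrial limit it was 0.91. Their part in the result was not tested. Lrg1 was at 0.75-fold (0.51 to 1.14), Icam2 at 1.40-fold (0.99 to 2.03), Vcam1 at 1.82-fold (0.73 to 5.85) and Selp at 0.64-fold (0.20 to 2.66), all with intervals that include 1.

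Fibroblasts, the main matrix-making cells of muscle, showed opposite changes for different members. In quadriceps 2 of 3 tested members were at least 2-fold higher in mdx5cv and 1 was at least 2-fold lower, against 7.21% and 6.23% of all 7003 genes. Icam1 was higher by 3.21-fold (2.48 to 4.21), in 7.84% of WT and 35.8% of mdx5cv cells, or 1.63% and 8.15% after thinning. Vcam1 was higher by 2.09-fold (1.73 to 2.53). Ackr1 was at 0.38-fold (0.30 to 0.49), and Cadm3, which overlaps it, at 0.33-fold (0.27 to 0.40). In diaphragm Vcam1 was higher by 6.02-fold (5.26 to 6.91), Icam1 by 1.62-fold (1.49 to 1.76), and Ackr1 was at 0.21-fold (0.17 to 0.26) beside 0.26-fold for Cadm3. There 3.54% of 6390 genes were at least 2-fold higher and 4.8% lower. When cells were weighted equally the quadriceps values were 3.71 for Icam1, 1.68 for Vcam1 and 0.58 for Ackr1, so that only Icam1 remained past 2-fold. Free RNA of the quadriceps held Icam1 at 32.2 CPM in WT, above the WT fibroblast level of 26.3 CPM, and at 62.9 CPM in mdx5cv. From WT to mdx5cv, leukocyte markers in the fibroblast class summed to 25.1 and 111 CPM in quadriceps and to 20.6 and 129 CPM in diaphragm. The part of either in these ratios was not tested.

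The mural gate, meant for the cells that wrap vessels, took cells whose markers went against that name in mdx5cv. Fibroblast markers summed to 1642 CPM in the WT and 24194 CPM in the mdx5cv class of the quadriceps, and mural markers to 22512 and 8721 CPM, each over 6 genes. In the quadriceps 18.6% of 8021 genes tested in this class were past 2-fold higher. Of 2 tested members both were at least 2-fold higher, beside 14.3% of genes lower. Icam1 had 0 UMIs in 117 WT cells and 13 in 39 mdx5cv cells. Its ratio was 4.55 with the WT class set to the floor of 3 UMIs, and the exact lower limit was 3.2. Vcam1, with 6 and 31 UMIs, was 5.42-fold higher (2.23 to 15.9). The part of the fibroblast markers in the result was not tested. In the mural class of the diaphragm 0 of 1 tested member was called, where 5.35% of 6976 genes were higher and 31.8% lower, and Vcam1 rested on 1 UMI in 17 WT cells and 15 in 31 mdx5cv cells.

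Stem cells had 0 of 2 tested members past 2-fold in quadriceps in either direction, against 20.7% higher and 9.6% lower among 7216 genes. Vcam1 was at 0.52-fold (0.44 to 0.62) in quadriceps and at 0.70-fold (0.58 to 0.85) in diaphragm. In diaphragm 0 of 1 tested member was called, against 24.8% higher and 11.7% lower among 6434 genes. Markers of other cell types also differed within the stem class: from WT to mdx5cv, fibroblast markers were at 2855 and 8167 CPM in quadriceps and at 5401 and 2635 CPM in diaphragm, and mural markers at 314 and 1124 CPM and at 233 and 987 CPM. After thinning before the gates were applied the quadriceps value was 1.23 and the diaphragm value 1.39, and the share of stem cells with a Vcam1 UMI at 1000 UMIs was 31.9% in WT and 19.1% in mdx5cv quadriceps but 36.9% and 39.7% in diaphragm. Immediate-early transcripts made up 2.09% and 3.39% of UMIs in WT quadriceps and diaphragm stem cells and 0.280% and 0.520% in mdx5cv. Their part in the result was not tested.

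On the leukocyte side Selplg was found in every type that was measured. Its level over all leukocytes was 214 CPM (192 to 238) in WT quadriceps, 306 CPM (300 to 312) in mdx5cv quadriceps, 191 CPM (174 to 208) in WT diaphragm and 222 CPM (216 to 229) in mdx5cv diaphragm. The share of leukocytes with a UMI was 53.3% in WT and 74.9% in mdx5cv quadriceps, or 19.5% and 27.5% after thinning, against 0.0829% and 0.244% of endothelial cells. Of 2 tested members in quadriceps leukocytes, Selplg at 1.43-fold (1.28 to 1.59) and Icam1 at 1.51-fold (1.21 to 1.90), 0 were past 2-fold, where 11.4% of 6027 genes were higher and 3.97% lower. The makeup of the class also differed: macrophages were 37.9% of WT and 55.0% of mdx5cv quadriceps leukocytes and dendritic cells 25.1% and 9.15%.

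Within mdx5cv quadriceps Selplg was highest in neutrophils, 716 CPM (522 to 958) in 32 cells, and in T and NK cells, 572 CPM (506 to 644), whose intervals overlapped. Dendritic cells followed at 485 CPM (461 to 510), also overlapping T and NK cells, then monocytes at 309 CPM (290 to 329) and macrophages at 262 CPM (255 to 269). B cells were low in both diaphragm libraries, at 23.8 CPM (4.91 to 69.6) in WT and 38.9 CPM (21.8 to 64.2) in mdx5cv. Among the types compared, dendritic cells had the largest ratio between genotypes, 1.90-fold (1.59 to 2.29) in quadriceps and 1.92-fold (1.48 to 2.55) in diaphragm. The intervals of quadriceps monocytes, at 1.73-fold (1.13 to 2.81), and diaphragm B cells, at 1.63-fold (0.46 to 8.81), overlapped these. With 11 T and NK cells and 2 neutrophils in WT quadriceps, those types were not compared there. Macrophages were at 1.55-fold (1.25 to 1.94) in quadriceps and at 0.99-fold (0.82 to 1.21) in diaphragm.

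**Figure D5:**
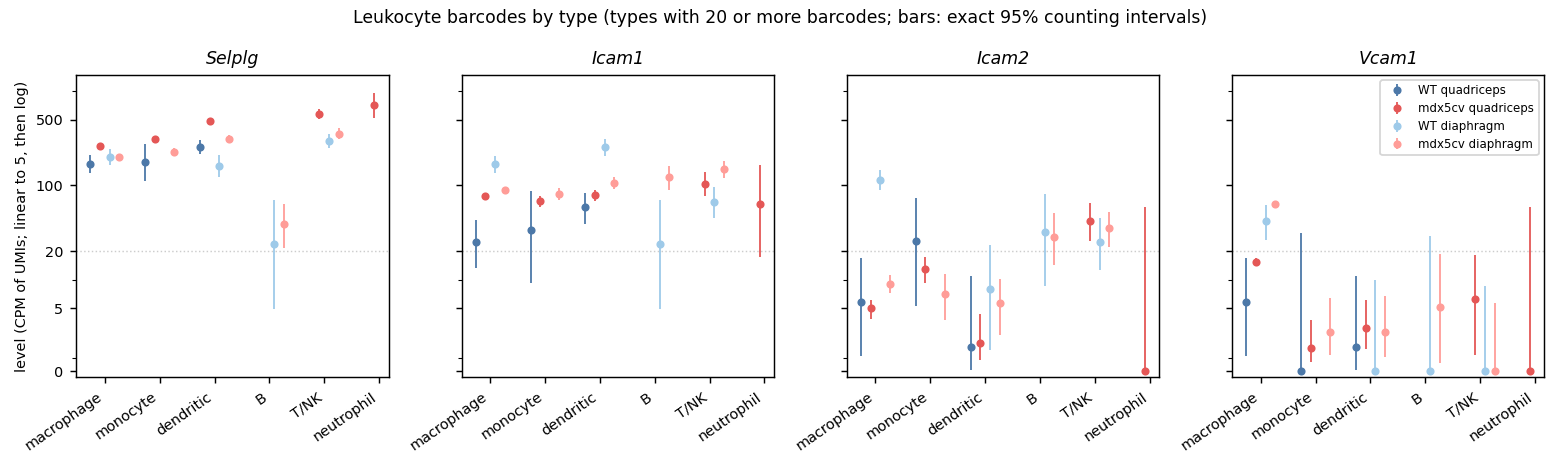
Level of Selplg, Icam1, Icam2 and Vcam1 in CPM (linear up to 5, logarithmic above) in leukocyte types with 20 or more cells, with exact 95% counting intervals. Selplg is low in B cells alone, Icam2 is high in WT diaphragm macrophages at 115 CPM, and Vcam1 is found in macrophages, at 63.8 CPM in mdx5cv diaphragm.

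In diaphragm leukocytes, 4 members were tested. Vcam1 was higher in mdx5cv by 3.57-fold (2.38 to 5.62) and Icam2 was at 0.25-fold (0.20 to 0.32), against 10.8% of 5890 genes at least 2-fold higher and 6.47% lower. Vcam1 UMIs numbered 24 in WT and 617 in mdx5cv leukocytes, of which 24 and 581 were from macrophages, and within macrophages the ratio was 1.53 (1.02 to 2.41), while macrophages were 16.9% of WT and 40.2% of mdx5cv diaphragm leukocytes. Icam2 in macrophages was at 115 CPM (88.6 to 146) in WT and 9.0 CPM (7.16 to 11.2) in mdx5cv. The 66 WT UMIs came from 15 of 120 cells, and mdx5cv held 82 UMIs in 56 of 1297 cells. Other transcripts, chosen after their values were seen, were also higher in the WT macrophages of the diaphragm: Prg4 was at 403 CPM against 26.5 CPM in mdx5cv, Alox15 at 278 against 25.4 CPM, Saa3 at 217 against 39.4 CPM and Timd4 at 184 against 3.95 CPM. Gata6, read with them, was at 5.21 CPM on 3 UMIs in WT and at 2.53 CPM in mdx5cv. Prg4, Alox15 and Saa3 came from 11, 9 and 7 of the WT cells and from 30, 12 and 19 of the mdx5cv cells. The part of such cells in the Icam2 result was not tested. In quadriceps macrophages Icam2 was at 5.83 CPM in WT and 5.03 CPM in mdx5cv. Timd4 was at 54.4 CPM in WT against 0.449 CPM in mdx5cv there, and Prg4 at 5.83 against 5.70 CPM. Saa3 was at 0 against 0.942 CPM, and Alox15 at 0 in both.

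Other genes of the pathway were counted from 8 lists, under the reported settings alone. Their calls were not recomputed under the alternatives that moved the calls of the members. The part of leukocyte transcripts in the endothelial list calls was not tested. In quadriceps endothelium 4 of 13 tested NF-kB response genes were at least 2-fold higher and 0 lower, with a median log2 ratio of 0.71 against 0.17 over all genes. Over all genes 5.71% were higher and 2.06% lower, the background for this list and for the other endothelial lists of the quadriceps. They were Bcl3, a nuclear partner of NF-kB, by 5.64-fold (3.85 to 8.31), Tnfaip2 by 2.85-fold, the subunit gene Nfkb2 by 2.78-fold and the TNF receptor Tnfrsf1b by 2.10-fold. Nfkbia, which encodes the inhibitor of NF-kB, was at 1.07-fold (0.93 to 1.23). Of 10 tested genes on the list named for gp130, STAT3 and TGF-beta, 3 were higher and 0 lower. They were the interleukin-4 receptor chain Il4ra by 4.84-fold (3.82 to 6.13), Stat3 by 2.35-fold (2.02 to 2.74) and Tgfbr2 by 2.01-fold (1.68 to 2.39). Il4ra is on that list but is not a chain of the gp130 or TGF-beta receptors. Socs3, which STAT3 induces, was at 1.97-fold (1.56 to 2.47).

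Of 6 tested chemokine and cytokine genes 2 were higher, Il6 from 3 to 30 UMIs by 44.3-fold (13.8 to 227) and Cxcl16 by 2.09-fold (1.35 to 3.18). Of 12 tested junction and docking genes 1 was higher, Cd34 by 2.33-fold (2.15 to 2.53), and of 7 Weibel-Palade body genes 1, Cd63 by 2.18-fold (1.73 to 2.75). Vwf, which fills the same granules as P-selectin, was at 1.13-fold (0.96 to 1.32). In these lists 0 genes were lower. None of the 4 platelet genes reached 20 CPM.

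In quadriceps leukocytes 2 of 11 tested integrins and ligands were higher and 0 lower, near the 11.4% higher and 3.97% lower over all genes: Itgb2, the beta chain shared by LFA-1 and Mac-1, by 2.10-fold (1.775 to 2.49) and Itgax by 2.03-fold (1.70 to 2.44). Itgam was at 1.25-fold (1.11 to 1.40), Itgal at 1.09-fold (0.90 to 1.33) and Itga4, the alpha chain that binds VCAM-1, at 0.72-fold (0.64 to 0.83). Of 7 tested genes for selectin ligand synthesis Gcnt1, by 3.52-fold (2.09 to 6.46), and B4galt1, by 2.28-fold (1.72 to 3.09), were higher and the sialyltransferase gene St3gal6 was at 0.33-fold (0.26 to 0.42). St3gal6 was also lower in diaphragm leukocytes, at 0.35-fold (0.30 to 0.42), the only gene of either leukocyte list called there.

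In diaphragm endothelium the same lists gave other counts. The NF-kB list had 0 higher and 1 lower of 13, with a median log2 ratio of -0.04, and the gp130, STAT3 and TGF-beta list 1 higher and 2 lower of 10, near the shares of 8.77% higher and 10.8% lower over all 7310 genes. The junction and docking list had 2 higher and 0 lower of 12, and the chemokine list 2 higher and 2 lower of 8. The Weibel-Palade body list had 1 higher and 2 lower of 8, with a median log2 ratio of -0.76 against 0.08 over all genes. Il4ra was higher again, by 7.10-fold as counted on 2 and 78 UMIs (1.90 to 59.7), and Cd34 by 2.75-fold (2.0 to 3.87), whereas Tgfbr2 was at 0.44-fold (0.32 to 0.61), Socs3 at 0.27-fold (0.18 to 0.40) and Cd63 at 0.26-fold (0.19 to 0.35). Podxl, which like Cd34 is a sialomucin of the vessel lumen, was higher by 2.10-fold (1.70 to 2.63).

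Over 17 profiles of a class in a library with at least 50 cells, likeness to each member was measured as the Pearson correlation of log2(CPM + 10) among 10546 genes, as a description of profiles that share libraries and depths. Selplg was closest to Itgam (0.996), Sla (0.995) and Dock2 (0.994), and Icam2 to Gimap4 (0.987), S1pr1 (0.986) and Gimap8 (0.982). Lrg1 was closest to Spns2 (0.984), Endou (0.983) and Nxpe2 (0.979), and Selp to Gimap8 (0.954), Zdhhc2 (0.947) and Ets2 (0.941). Vcam1 was closest to Ppp4r2 (0.926), Peg3 (0.913) and Zim1 (0.906). Icam1, with Nfatc1 (0.875), Ccdc71l (0.852) and Snap29 (0.849), and Ackr1, with C1galt1 (0.859), Kdsr (0.846) and Lrrk2 (0.844), had no near match. Sele stayed under 20 CPM in every profile, so its nearest genes, F2rl3, Tmem252 and Lhx6, rest on few UMIs.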

How the data were processed

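Droplet-based 3′ single-cell RNA-seq was read from 4 unfiltered matrices of whole-number UMI counts, deposited by the authors without normalization. Cell Ranger 5.0.0 and mm10 are named per the submitters' processing notes, while the matrix headers name version 4, and the strand used for counting is not stated. Barcodes with at least 1000 UMIs, 500 genes and at most 15% mitochondrial UMIs were kept, and between 315 and 676 per library were removed by the last limit. Cells were gated on at least 2 UMIs of Pecam1 and Cdh5 (endothelial), of Ptprc, Laptm5 and Coro1a (leukocyte), of Pax7, Myf5, Cdh15 and Chodl (stem) or of Notch3, Kcnj8 and Abcc9 (mural), and on 3 of Dcn with 1 of Pdgfra (fibroblast). No member is in a gate. Barcodes that met more than 1 gate, 277 to 793 per library, were left out in place of a doublet caller. UMIs were summed per class and library to CPM. Intervals are exact Poisson for levels, exact conditional for ratios and Clopper-Pearson for shares. A gene was called at 2-fold or more among genes at 20 CPM or more in either library. Genes of the pathway lists were named where called in quadriceps, at most 5 per list, and the others printed from those lists, including those called in diaphragm, were chosen after their values were seen. The members, lists and gates were chosen with earlier results of these data known. The alternatives that leave out barcodes rich in immediate-early transcripts, use WT vessel shares or cover ratios in the other classes and in capillary and venous cells were added after seeing the data. The ratio and interval code was checked on simulated counts. Gene positions are from GENCODE M21 (GRCm38). Python 3.11.15, numpy 2.4.6, scipy 1.17.1, pandas 2.3.3 and matplotlib 3.10.9 were used.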

Additional observations from a re-analysis of the deposited data

Results flagged for a closer look

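Icam1 over all endothelial cells and over all leukocytes pointed in opposite directions in the 2 muscles, and the difference was not tested. In endothelial cells the mdx5cv to WT ratio was 1.58 in quadriceps and 0.387 in diaphragm, where the WT class held 67 cells and the ratio was 0.996 once barcodes meeting another gate were kept. In leukocytes it was 1.51 in quadriceps and 0.862 in diaphragm, and the latter was above 1 after thinning and when cells were weighted equally. The diaphragm value pooled types that differed in direction. The ratio was below 1 in macrophages, at 0.529 (0.428 to 0.66), and dendritic cells, at 0.42 (0.328 to 0.542). It was above 1 in T and NK cells, at 2.22 (1.46 to 3.49), and B cells, at 5.12 (1.65 to 25.7). Unresolved leukocytes were at 1.69 (1.296 to 2.24). T and NK cells were 20.99% of WT and 8.4% of mdx5cv leukocytes there, and macrophages 16.9% and 40.2%. The part of this makeup was not tested.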

How the results depend on the processing

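No paired analysis was possible because each group is 1 library. Counts of members past 2-fold were recomputed under 130 alternatives, of which 96 stayed within 1.5 times the reported count, and 293 alternative ratios gave 13 reversals. In quadriceps endothelium the 3 higher members became 1 with mixed barcodes kept (Selplg alone), 1 at 2000 UMIs and 1 after thinning (Lrg1 in both), 0 at the 5% mitochondrial limit and 5 with no filter on low values (where 5367 of 16195 genes were higher), and the 0 lower became 1 with mixed barcodes kept (Icam2). In diaphragm endothelium the 0 higher became 2 with mixed barcodes kept and 1 at 2000 UMIs, at 5% mitochondrial UMIs and at 1.5-fold, and the 1 lower became 0 with mixed barcodes kept, 2 as a mean over cells and at 1.5-fold, and 3 with no filter (5464 of 13647 genes lower). These counts do not follow single members. Icam1 itself was short of 2-fold under other settings too, among them the 5% mitochondrial limit and leaving out barcodes rich in immediate-early transcripts. In quadriceps leukocytes the 0 higher became 1 with mixed barcodes kept, at 1.5-fold and with no filter, and the 0 lower became 3 with no filter (7441 of 18936 genes lower). In fibroblasts the 2 higher became 1 after thinning, without the deepest 5% and as a mean over cells, and the 1 lower became 0 after thinning and as a mean over cells and 3 with no filter (5073 of 17210 genes lower). In stem cells the 0 higher became 1 with mixed barcodes kept, at 5% mitochondrial UMIs, after thinning, without the deepest 5%, as a mean over cells and at 1.5-fold, and the 0 lower became 1 with mixed barcodes kept, at 5% mitochondrial UMIs, by median-ratio scaling and at 1.5-fold. The cause of these moves was not tested.

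Ratios reversed at the 5% mitochondrial limit for Icam1 (0.978), Vcam1 (0.559) and Ackr1 (0.85) in quadriceps endothelium and for Selp (0.770) and Lrg1 (0.936) in its venous cells. Vcam1 reversed at 2000 UMIs (0.964) in quadriceps endothelium. After thinning, Selp in venous cells was at 0.982, Vcam1 in stem cells at 1.23 in quadriceps and 1.39 in diaphragm, and Icam1 in diaphragm leukocytes at 1.5, or 1.29 as a mean over cells. With mixed barcodes kept, venous Lrg1 was at 0.979 and diaphragm stem cell Vcam1 at 1.17. The number of members highest in endothelial cells of the quadriceps did not change under the alternatives run for it. Depth limits Sele, with 13 and 9 UMIs, and the WT diaphragm, with 67 endothelial cells.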

Other observations

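Macrophages of the WT diaphragm, 120 cells, held 11 UMIs each of Selp and Lrg1 beside the 66 of Icam2. In WT quadriceps leukocytes 18 Ackr1 UMIs came from 4 cells. Within mdx5cv endothelium, diaphragm stood below quadriceps for Selp, at 0.31-fold (0.16 to 0.56), and for Ackr1, at 0.26-fold (0.14 to 0.45), and above it for Icam1, at 1.74-fold (1.29 to 2.37), and Icam2, at 1.53-fold (1.28 to 1.85). The diaphragm values rested on 14 Selp UMIs from 4 venous cells and 17 Ackr1 UMIs from 5. Venous cells held 10.8% of endothelial UMIs there and 18.4% in quadriceps. Within venous cells Selp was at 131 CPM (71.4 to 219) in diaphragm and 226 CPM (164 to 303) in quadriceps. Ackr1 was at 159 CPM (92.4 to 254) and 313 CPM (239 to 402), and both pairs of intervals overlapped.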
